A study of Mus musculus with 6 samples.

Results

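The TRIM family ubiquitin ligases were followed in Treg cells that lost *Rbx1* and *Sag*. Members were all genes whose symbol is Trim followed by a number and at most 1 letter, together with *Pml*, which makes 61 of the 19505 genes measured. Each gene was read from its brightest named probe set, and members were divided by whether the mean log2 signal over the 6 arrays lay above 6 (21 members) or below it (40 members). Both groups were CD4+YFP+ Treg cells sorted from peripheral lymph nodes and spleens of female mice, 8 to 12 weeks old, that carry the *Foxp3* YFP-Cre allele on 1 X chromosome (Foxp3 Cre/wt). The control group has this allele alone, and the *Rbx1*&*Sag*-deficient group carries in addition floxed alleles of both genes, Rbx1 fl/fl and Sag fl/fl, so that Cre acts where *Foxp3* is expressed from that chromosome. These females also keep Treg cells without Cre, in which both genes stay intact, and are described by the study as free of inflammation. There were 3 samples per group, each a pool of 2 to 3 mice on a single Clariom S array. The spread behind each p-value is thus one between pools, and limma takes it partly from the gene itself and partly from all genes. An exact two-sided permutation test of 3 against 3 cannot go below 0.1. The word muscle stands in every sample title, although tissue, cell type and methods name Treg cells.

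TRIM proteins share an N-terminal module of a RING finger, B-boxes and a coiled coil, and most act as single-protein ubiquitin ligases whose C-terminal domain picks the target. *Rbx1* and *Sag* (symbol *Rnf7*) encode the RING subunits of the other large class of such enzymes, the multi-subunit cullin-RING ligases. Many TRIM genes are induced by interferon and act in antiviral defence, several are nuclear cofactors of transcription, and others work mainly in muscle, neurons, erythroid cells or germ cells.

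*Rbx1* was at 9.26, 10.08 and 9.80 in control and at 5.04, 5.53 and 5.84 in deficient arrays (adjusted p = 0.000237 from limma), whereas *Rnf7* differed by -0.57 (adjusted p = 0.379), with a probe set whose place relative to the deleted part is not known. Over all genes 9.49% were called lower and 2.7% higher at an adjusted p under 0.05 from limma. The arrays differed in spread, with upper quartiles of 7.77 to 7.88 in the control and 6.99 to 7.48 in the *Rbx1*&*Sag*-deficient group, and the genes above 6 had a median difference of -0.52. The mean level of 9 T cell and Treg markers was 15.34 to 15.64 in control and 14.41 to 14.99 in deficient arrays, with 5 called lower. The lists for other cells lay far below these, at 3.39 to 5.35 over all arrays. The B cell list (3 genes) was at 4.56 to 4.61 against 4.01 to 4.17, the myeloid list (6) at 3.69 to 4.34 against 3.39 to 3.41, and the CD8 T and NK list (6) at 4.96 to 5.35 against 4.20 to 4.59, the deficient arrays being the lower each time. Of these lists 1, 2 and 2 genes were called lower. They were *Cd79b* (-1.807) for B cells, *Lyz2* (-1.907) and *Spi1* (-2.103) for myeloid cells, and *Klrb1c* (-2.003) and *Nkg7* (-2.843). In the lists 2, 3 and 3 genes lay at or below the array's median on every array. Members of each list did not move together. The median differences of the lists were -0.04, -0.325 and -0.08. In every deficient array 1, 2 and 1 genes were higher (*Ms4a1*, *Itgam* and *Adgre1*, and *Ncr1*, none called). These rises were 0.31 to 0.4767, in genes below the array's median on every array. In bulk samples fewer cells of a type and less RNA per cell cannot be told apart. Whether the spread of the arrays or the minor cell types had a part in the results below was not tested.

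The sequences shown lie in front of TRIM genes on chromosome 7, which holds 5 of the 7 members called lower. Whether they bear on the falls was not tested. In RefSeq's gene order (GRCm38.p6) *Trim6*, *Trim34a*, *Trim5*, *Trim12a*, *Trim34b*, *Trim12c*, *Trim30b*, *Trim30c*, *Trim30a* and *Trim30d* follow each other within a run of 11 protein-coding genes, and *Trim21* and *Trim68* end another run of 9. A motif of interferon-stimulated response elements, GAAANNGAAA or TTTCNNTTTC on the opposite strand, was searched in RefSeq promoter windows of 300 bases, from 250 before to 50 after each start. The search was chosen after the members' values had been seen. The motif was present in 3.44% of all 32851 windows and in 4.06% of 5498 measured genes above 6. Of the 47 members with a window, 7 held it: *Trim12a*, *Trim12c*, *Trim21*, *Trim26*, *Trim30a*, *Trim30d* and *Trim2*. Of the members called lower, 5 of 6 with a window held it and *Trim56* did not, whereas it was found in 1 of 10 other members above 6 and in 1 of 31 below 6. A match is a run of letters and not a site shown to be used. The windows of *Trim30a* and *Trim30d* matched at 93.6% of 295 aligned bases and those of *Trim12a* and *Trim12c* at 72.3% of 260, whereas *Trim30a* against *Trim30b* reached 34.8% and against *Trim56*, on another chromosome, 35.4%. Shown are 70 bases before and 30 from the start of the 5 called genes on chromosome 7 and of *Trim30b*, an uncalled gene of the run of 11. All are on the minus strand, 5′ to 3′, with matches in capitals. In order the windows are chr7:104465164-104465263 (*Trim30a*), chr7:104507820-104507919 (*Trim30d*), chr7:104358617-104358716 (*Trim30b*), chr7:104315466-104315565 (*Trim12a*), chr7:104353320-104353419 (*Trim12c*) and chr7:102565453-102565552 (*Trim21*).
Trim30a: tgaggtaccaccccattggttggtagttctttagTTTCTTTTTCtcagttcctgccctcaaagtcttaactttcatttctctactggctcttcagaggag
Trim30d: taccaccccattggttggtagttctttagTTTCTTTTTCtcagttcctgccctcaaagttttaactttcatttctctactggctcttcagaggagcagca
Trim30b: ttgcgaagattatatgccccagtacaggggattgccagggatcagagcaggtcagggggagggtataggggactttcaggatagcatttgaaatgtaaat
Trim12a: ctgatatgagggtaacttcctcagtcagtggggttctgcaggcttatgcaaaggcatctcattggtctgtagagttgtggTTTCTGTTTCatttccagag
Trim12c: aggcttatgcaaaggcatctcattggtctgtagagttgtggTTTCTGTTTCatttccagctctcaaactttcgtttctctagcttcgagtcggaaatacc
Trim21: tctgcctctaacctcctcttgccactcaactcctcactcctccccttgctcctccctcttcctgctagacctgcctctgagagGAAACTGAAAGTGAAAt
In the *Trim30a* window shown and in *Trim30d* the match has the same 10 letters and ends 27 and 32 bases before the start. *Trim30a* has 2 windows, and the other holds the same letters at bases 3 to 12 from its own start. The identities given above are for the *Trim30a* window shown. *Trim12a* and *Trim12c* share another match, and *Trim21* has 2 that overlap.

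Across the family 7 members fell, 1 rose and 53 did not pass the test in *Rbx1*&*Sag*-deficient Treg cells. The 7 were *Trim30d*, *Trim14*, *Trim21*, *Trim30a*, *Trim56*, *Trim12a* and *Trim12c*, all above 6, and the member that rose was *Trim13*, below 6. Among members above 6, 33.3% were therefore called lower and none higher, beside 20.9% and 2.08% of all 6672 genes above 6. The median difference of these 21 members was -0.55, close to the -0.52 of all genes above 6. It was 0.017 once each array was centred on its genes above 6. Among members below 6, 1 of 40 was called higher and none lower, beside 3.02% and 3.55% of the 12833 genes below 6. In 10 of 21 members above 6 every deficient array lay below every control array, which held for 40.9% of all genes above 6. As a whole the brighter members were thus near the genes of like signal in median, and their calls gathered in a few large differences.

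**Figure D1:**
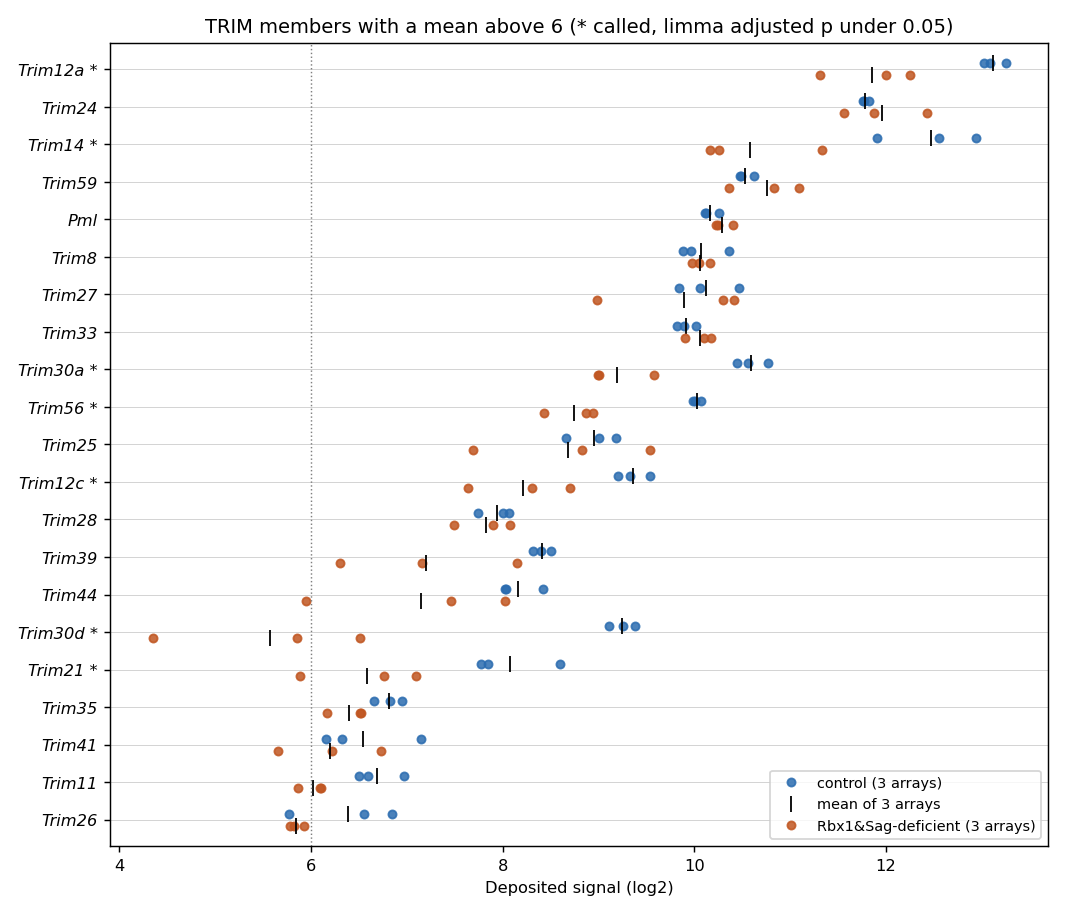
Deposited log2 signal (horizontal axis) of the 21 TRIM members with a mean above 6, ordered by mean, in 3 control arrays (blue) and 3 Rbx1&Sag-deficient arrays (orange), with each group's mean as a bar and an asterisk at members called by limma. The deficient arrays of Trim30d, at 4.35 to 6.51, are far from its control arrays at 9.11 to 9.38, while both groups of Pml lie between 10.11 and 10.40.

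*Trim30a* and its neighbour *Trim30d* are rodent genes of the TRIM30 group, and mouse TRIM30a is known as an interferon-inducible brake on Toll-like receptor signalling that acts through TAB2 and TAB3. *Trim30d* read 9.26, 9.38 and 9.11 in control and 4.35, 6.51 and 5.85 in deficient arrays. The control arrays were close together and the deficient ones scattered, with no overlap. It fell by 3.68 (standard error, SE, 0.47, limma adjusted p = 0.00245), which is 12.8-fold and the largest difference of the family. Its lowest deficient value, in replicate 1, was near that array's median of 4.28, so background sets a floor under this value. *Trim30a* read 10.77, 10.56 and 10.45 in control and 9.0, 9.58 and 9.01 in deficient arrays, again without overlap. It fell by 1.40 (SE 0.24, limma adjusted p = 0.00906), or 2.63-fold. *Trim30b*, in the same run of genes and separated from *Trim30a* by *Trim30c*, read 4.02 ± 0.07 (SD, n = 3) and 4.10 ± 0.45 (SD, n = 3). These values lay below or near the arrays' medians, and *Trim30b* did not pass (adjusted p = 0.860 from limma). The TRIM30 genes are close copies of each other, as are *Trim12a* and *Trim12c*, and how well the probe sets tell them apart is not given in the sources used here.

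*Trim12a* and *Trim12c* belong to the mouse relatives of TRIM5, the retrovirus restriction factor of primates. *Trim12a* had the highest signal of all members, at 13.25, 13.09 and 13.02 in control and 11.31, 12.25 and 12.00 in deficient arrays. Every deficient array was lower, and replicate 1 was the lowest. The difference was -1.27 (SE 0.27, limma adjusted p = 0.0201). *Trim12c* read 9.33, 9.20 and 9.54 in control and 7.64, 8.31 and 8.70 in deficient arrays. Its groups did not overlap and differed by -1.14 (SE 0.29, limma adjusted p = 0.0362), the weakest of the called falls. *Trim6* in the same run read 3.77 to 3.82 in group means and was not called (adjusted p = 0.927). *Trim21*, a cytosolic receptor for antibody-coated viruses, read 7.77, 7.85 and 8.6 in control and 6.76, 7.10 and 5.89 in deficient arrays. All its deficient arrays were lower, replicate 3 the most, and it fell by 1.49 (SE 0.35, limma adjusted p = 0.0286). *Trim68*, at the other end of the *Trim21* run, was not called (adjusted p = 0.407). The 18 olfactory receptor genes measured beside or within these runs had means of at most 3.75, and none was called. Above 6, members on chromosome 7 numbered 6, of which 5 were called lower, with *Trim28* the exception, against 2 of 15 on other chromosomes. Among all genes above 6 the shares called lower were 21.7% on chromosome 7 and 20.9% elsewhere.

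*Trim14*, which has no RING finger and acts as an adaptor of the antiviral protein MAVS at mitochondria, read 11.91, 12.55 and 12.94 in control and 11.33, 10.26 and 10.16 in deficient arrays. The highest deficient array, replicate 1, came near the lowest control array, also numbered 1, without reaching it. It fell by 1.88 (SE 0.37, limma adjusted p = 0.0146), or 3.69-fold. *Trim56*, known for ubiquitination in the cGAS and STING pathway of DNA sensing, was among the tightest members. It read 9.99, 10.01 and 10.07 in control and 8.94, 8.87 and 8.43 in deficient arrays. The groups stood well apart and differed by -1.28 (SE 0.22, limma adjusted p = 0.00947).

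**Figure D2:**
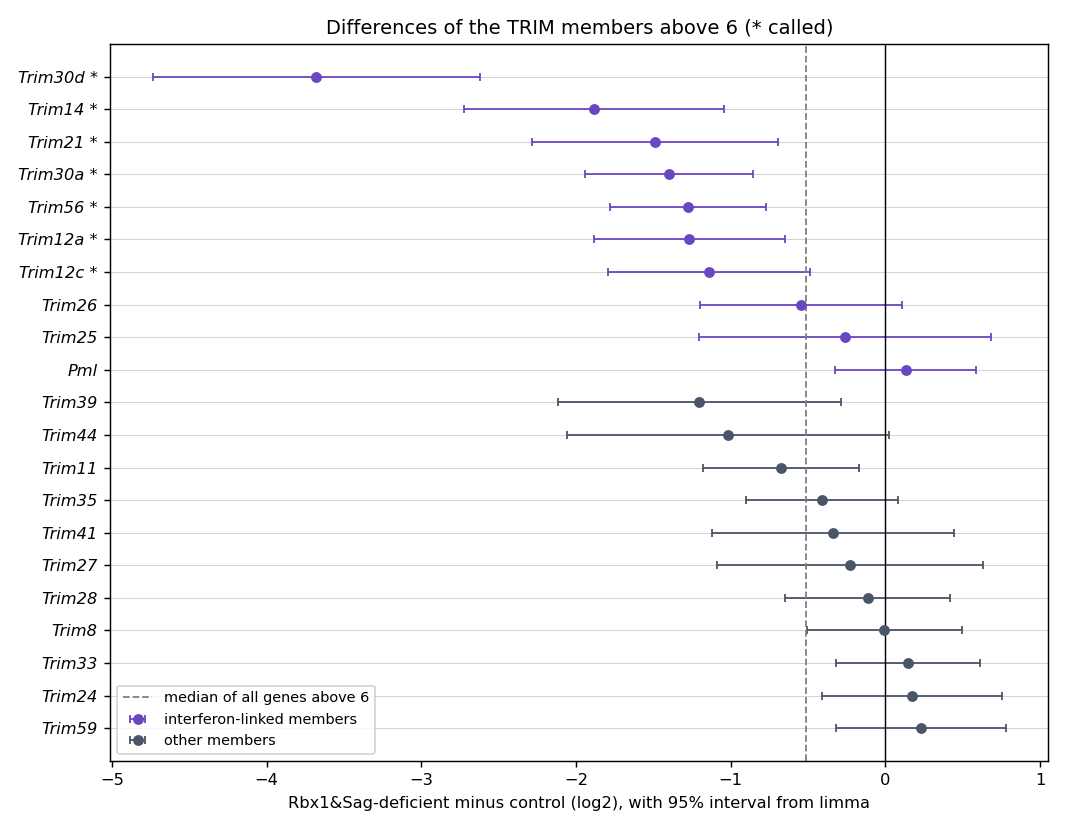
Difference of mean log2 signal, Rbx1&Sag-deficient minus control (horizontal axis), for the 21 members above 6, with 95% intervals from limma. Interferon-linked members are purple and other members grey, and the dashed line is the median of all genes above 6 (-0.52). The 7 called members run from -3.68 to -1.14, and Pml (0.13) is the only interferon-linked member on the positive side.

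The 7 members called lower all came from a list of interferon-linked TRIM genes, and *Trim13*, called higher, is not on it. The list was written from general knowledge with earlier results of these data known. Of its 13 measured genes, 10 lay above 6, and 7 of these 10 (70%) fell, beside 20.9% of all genes above 6. The count was 2 after quantile or cyclic loess normalization and 4 after centring on genes above 6. It was 2 to 7 without 1 array and 0 with the methods' t-test. The median of the 10 was -1.27, beside -0.52 for all genes above 6. The median was between -1.46 and -0.71 under every alternative run. The 11 other members above 6 had a median of -0.23 with none called, and this median turned positive under 3 scalings, to 0.31 (quantile), 0.30 (cyclic loess) and 0.34 (centring on genes above 6). No test of the difference between the lists was run. Interferon-linked members that did not pass are as much a part of the list. *Trim25*, the ligase that modifies the RNA sensor RIG-I, read 8.66, 9.18 and 9.01 in control and 8.83, 9.54 and 7.69 in deficient arrays. Only deficient replicate 3 was low, and the groups overlapped, with a difference of -0.26 (95% interval -1.21 to 0.68, adjusted p = 0.709 from limma). *Pml*, which builds nuclear bodies, read 10.26, 10.12 and 10.11 against 10.25, 10.40 and 10.23. The 6 values lay close together, and the difference was 0.13 (95% interval -0.32 to 0.58, adjusted p = 0.701). *Trim26*, known for limiting the interferon response through IRF3, read 5.77, 6.55 and 6.85 against 5.78, 5.93 and 5.82. Control replicate 1 lay among the deficient arrays, and the difference of -0.55 did not pass (adjusted p = 0.239). *Trim30b*, *Trim6* and *Trim38*, with means of 2.59 to 4.06, made up the rest and differed by -0.17 to 0.08.

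Nuclear cofactors of the TIF1 group, which carry a PHD finger and a bromodomain, were well expressed and 0 of the 3 above 6 were called. *Trim24*, a cofactor of nuclear receptors and the second brightest member, read 11.82, 11.76 and 11.77 in control and 11.88, 12.43 and 11.56 in deficient arrays. The deficient arrays lay on both sides of the tight control values (difference 0.17, 95% interval -0.41 to 0.75). *Trim33*, which binds SMAD proteins of the TGF-β pathway, read 10.02, 9.89 and 9.82 against 10.17, 9.90 and 10.10, with a difference of 0.15 (95% interval -0.32 to 0.61). *Trim28*, or KAP1, the scaffold of KRAB zinc finger repressors, read 8.07, 8.00 and 7.74 against 7.90, 8.08 and 7.49. Its groups overlapped, with a difference of -0.11 (95% interval -0.65 to 0.42). The adjusted p values of the 3 were 0.669 to 0.783 from limma. *Trim66*, the member of this group that is known from testis, had a mean of 3.15 and was not called (adjusted p = 0.233).

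The brightest of the other members were not called either. *Trim59*, a membrane protein of the endoplasmic reticulum, read 10.48, 10.49 and 10.62 against 10.36, 10.83 and 11.09, the largest positive difference above 6, with overlapping groups (0.23, adjusted p = 0.557 from limma). *Trim8*, linked to STAT3 and NF-κB signalling, read 9.88, 10.36 and 9.97 against 10.16, 10.05 and 9.98, a difference of -0.01 (95% interval -0.51 to 0.49). *Trim27* read 10.47, 10.06 and 9.84 against 8.98, 10.30 and 10.41, where deficient replicate 1 alone was low (adjusted p = 0.726). Below these came *Trim39*, *Trim44*, *Trim11*, *Trim35* and *Trim41*, all lower in mean and none called. *Trim39*, which is known to stabilise the apoptosis protein MOAP1, read 8.32, 8.40 and 8.50 against 7.16, 8.15 and 6.30. Its groups did not overlap, but the deficient arrays spread so widely that -1.20 had a standard error of 0.40 (adjusted p = 0.0846 from limma). *Trim44*, which has a ubiquitin protease type zinc finger in place of a RING, read 8.02, 8.42 and 8.04 against 7.46, 8.02 and 5.95, with deficient replicate 3 apart (adjusted p = 0.173). Without deficient replicate 2 both were called lower, at -1.68 (adjusted p = 0.00894) for *Trim39* and -1.45 (adjusted p = 0.0455) for *Trim44*. *Trim11* read 6.50, 6.60 and 6.97 against 6.10, 6.09 and 5.86 without overlap (-0.67, adjusted p = 0.0811), and *Trim35* 6.82, 6.95 and 6.66 against 6.17, 6.51 and 6.52, also without overlap (-0.41, adjusted p = 0.237). *Trim41* overlapped, at 6.32, 7.15 and 6.16 against 6.22, 6.73 and 5.66 (adjusted p = 0.544). Among the 21 members above 6 the lowest deficient array was replicate 3 in 12, replicate 1 in 8 and replicate 2 in 1, and replicates 3 and 1 are also the arrays with the lowest upper quartiles (6.99 and 7.21, against 7.48). What part this array order had in the sizes was not tested.

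**Figure D3:**
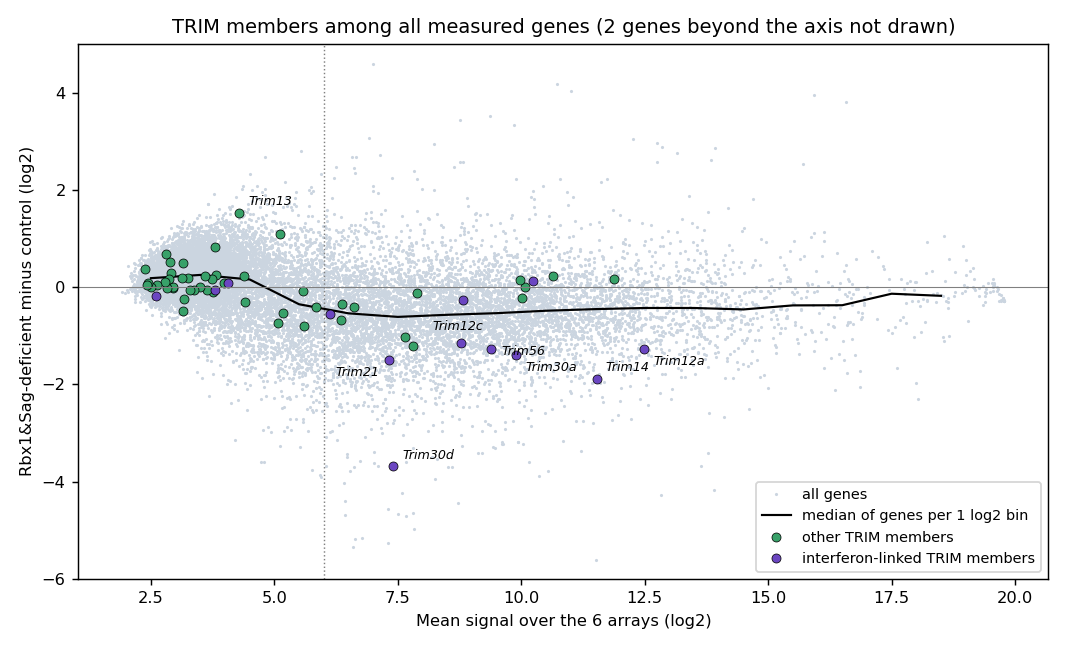
Difference of mean log2 signal, Rbx1&Sag-deficient minus control (vertical axis), against the mean log2 signal over 6 arrays (horizontal axis) for all genes in grey and TRIM members in purple (interferon-linked) or green (other), with the median of genes in bins of 1 log2 unit as a line and the split at 6 dotted. The line runs below 0 from 6 upward, where Trim30d (-3.68) lies far under it, and Trim13 (1.53) is the called member above it.

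The split at 6 passed between *Trim26* (mean 6.12), *Trim11* (6.35) and *Trim41* (6.37) inside and *Trim68* (5.85), *Trim37* (5.61) and *Trim52* (5.57) outside. *Trim68* read 5.85, 5.93 and 6.37 against 5.35, 6.30 and 5.27. *Trim37*, whose human gene is mutated in mulibrey nanism, read 5.37, 6.37 and 6.27 against 5.43, 5.77 and 4.43. *Trim52* read 5.45, 5.37 and 6.0 against 5.19, 5.70 and 5.71. In all 3 the groups overlapped and the adjusted p was 0.207 to 0.877 from limma.

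*Trim13*, a ligase of the endoplasmic reticulum membrane with a part in protein degradation there, was the only member that rose. It read 3.50, 3.67 and 3.39 in control and 5.40, 4.29 and 5.46 in deficient arrays. The control values lay below the medians of their arrays (4.04 to 4.14), and deficient replicate 2 was the lowest of its group. The difference was 1.53 (SE 0.32, limma adjusted p = 0.0187), or 2.89-fold on a scale that background limits at its lower end. *Trim31*, known for modifying MAVS and NLRP3, read 4.29, 4.75 and 4.68 against 5.77, 5.03 and 6.17. *Trim29* read 3.36, 3.37 and 3.42 against 4.05, 3.93 and 4.65. Both were higher in every deficient array and just missed the threshold (1.08, adjusted p = 0.0520, and 0.83, adjusted p = 0.0587). *Trim47* (0.68, adjusted p = 0.111) was also higher without overlap, and *Trim62* (-0.53), *Trim65* (-0.73) and *Trim32* (-0.50) were lower without overlap, with adjusted p of 0.124 to 0.135. Without overlap 4 of the 40 members below 6 were thus higher and 3 lower. Among all 12833 genes below 6 these counts were 2612 and 1116, and the median difference was 0.19.

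**Figure D4:**
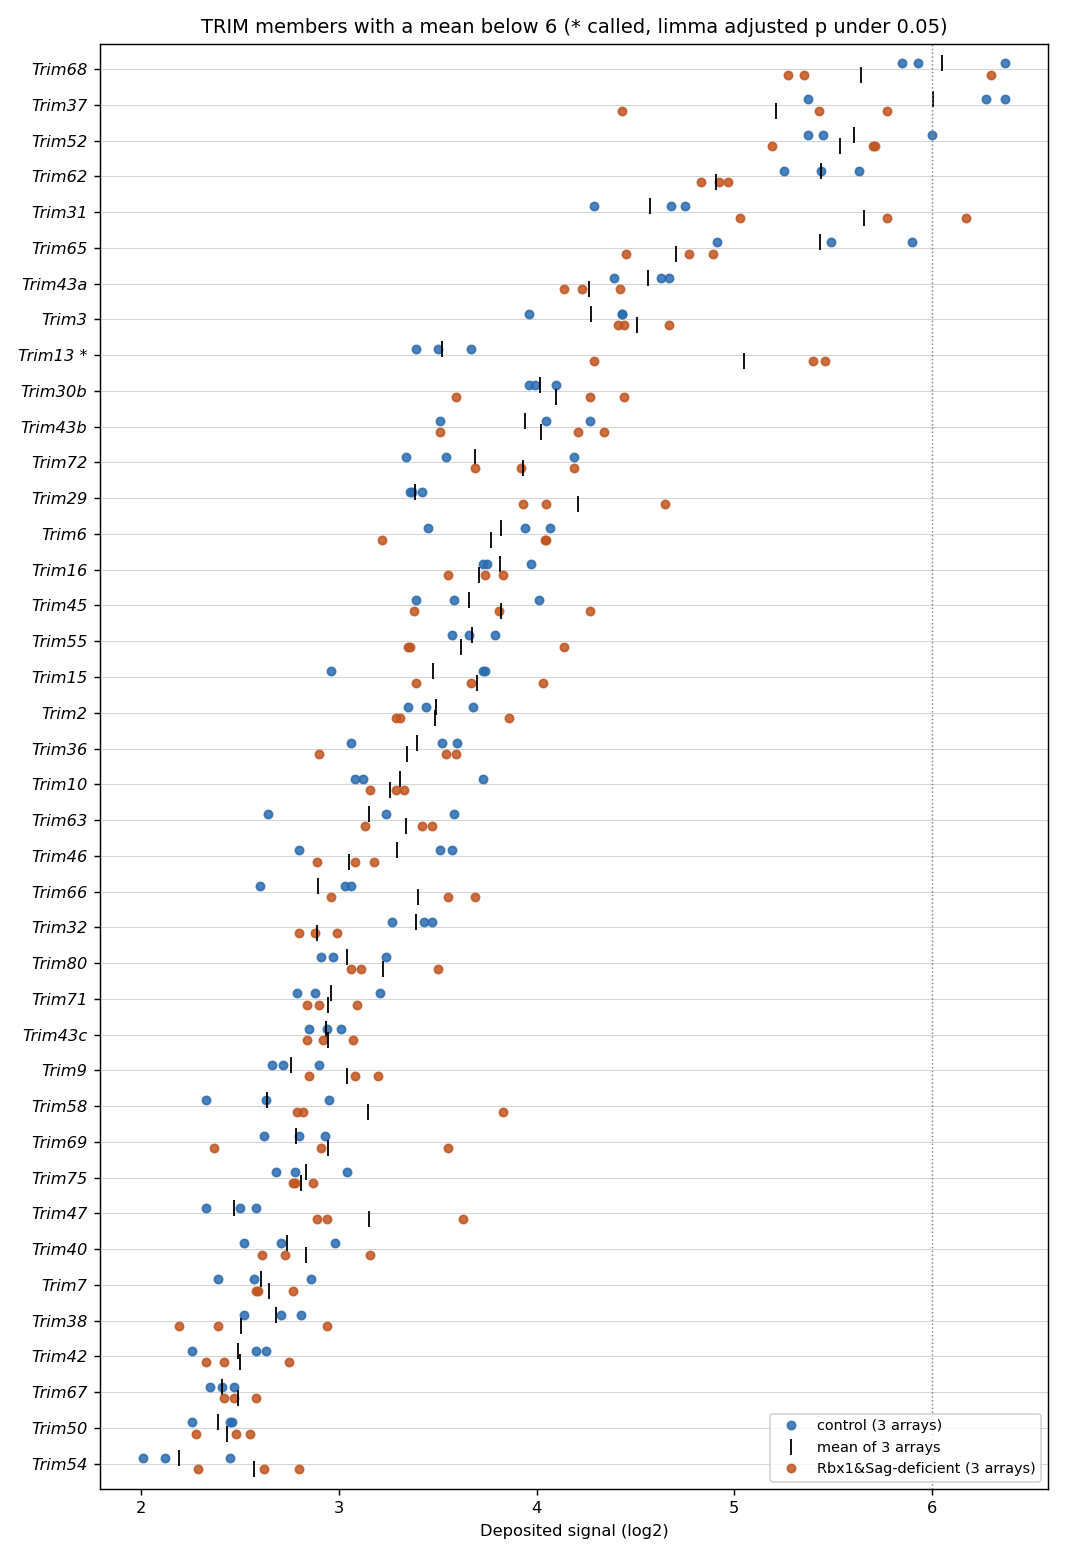
Deposited log2 signal (horizontal axis) of the 40 TRIM members with a mean below 6, in 3 control arrays (blue) and 3 Rbx1&Sag-deficient arrays (orange), with group means as bars and an asterisk at the called member. Most members lie between 2 and 5 with overlapping groups, and Trim13 is at 3.39 to 3.67 in control and 4.29 to 5.46 in deficient arrays.

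Most of the remaining members gave little signal. On all 6 arrays 26 members lay below the array's median and 27 above it. The 18 members known mainly from other tissues had means of 2.38 to 4.41, groups that overlapped and no call. The muscle members *Trim54*, *Trim55*, *Trim63* and *Trim72*, which include the atrophy ligase MuRF1 (*Trim63*), had means of at most 3.81 and differed by -0.06 to 0.38, and of 8 other muscle genes (3.40 to 3.63 in control, 3.56 to 3.72 in deficient arrays) none was called. The erythroid members *Trim10* and *Trim58* had means of 3.28 and 2.89, beside 5 other erythroid genes at a mean of 3.64 to 3.94 in control and 3.83 to 4.26 in deficient arrays, of which 1, *Epor*, was called higher. The 5 members of the nervous system (*Trim2*, *Trim3*, *Trim9*, *Trim46* and *Trim67*) reached at most 4.39 and the 7 of germ cells or embryo (*Trim42*, *Trim43a*, *Trim43b*, *Trim43c*, *Trim69*, *Trim71* and *Trim75*) at most 4.41. The other 9, *Trim7*, *Trim15*, *Trim16*, *Trim36*, *Trim40*, *Trim45*, *Trim50*, *Trim66* and *Trim80*, differed by -0.11 to 0.50 with overlapping groups. *Trim5*, *Trim17*, *Trim23*, *Trim30c*, *Trim34a*, *Trim34b*, *Trim60* and *Trim61* were not analysed here.

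Genes that work with the members were read from lists written in the same way. Of 24 genes of RNA and DNA sensing and interferon signalling, 6 (25%) fell and none rose, with a median of -0.66. Of these genes 18 lay above 6, where 20.9% of all genes were called lower. The called *Tab1* (mean 5.55) and the rest lay below 6, where 3.55% of all genes were called lower. When only genes above 6 were fitted, 5 of the 18 were lower, beside 1517 of 6672 genes. No test of this share was run. The count was 1 without any single control array, 5 to 10 without a deficient array, 2 after quantile and 4 after cyclic loess normalization, with 1 gene higher in both. The transcription factor *Irf3* read 8.58, 9.05 and 8.86 in control and 7.32, 6.93 and 6.86 in deficient arrays (-1.79, adjusted p = 0.00276 from limma). *Sting1*, the adaptor of DNA sensing that TRIM56 modifies, differed by -1.38 (adjusted p = 0.0141), *Mavs*, the partner of TRIM14, by -1.80 (adjusted p = 0.0180) and *Irf9*, a subunit of the interferon-activated ISGF3 factor, by -1.49 (adjusted p = 0.0193). *Tab1* and *Ifnar2* were the other called genes, whereas *Tab2*, a target of TRIM30a, read -0.89 (adjusted p = 0.0754) and *Ddx58*, which encodes the TRIM25 target RIG-I, -1.17 (adjusted p = 0.101). Of 14 genes of PML nuclear bodies none was called, with a median of -0.30, and *Sp100* had the smallest p (-0.71, adjusted p = 0.0753 from limma). In this list 2 were lower without deficient replicate 2 or with array weights, and 1 with an intensity trend or after median centring. After centring on genes above 6, 1 was higher. Of 21 partners of KAP1 and the TIF1 group 4 fell, *Tasor* (-1.31) of the HUSH complex, *Cbx5* (-1.48), which encodes HP1α, the retroviral repressor *Zfp809* (-1.30) and *Atf7ip* (-0.94), with a list median of -0.45. Of the 21, 20 lay above 6, and the share of 19.0% is near the same 20.9%. The list had 1 lower and 3 higher after quantile normalization, 1 lower and 2 higher after cyclic loess, and 1 lower without control replicate 2 or 3. Of 13 genes of the E2 family that work with such ligases 3 fell, *Ube2l6* (-1.54), *Ube2v2* (-1.59) and *Ube2n* (-0.97), and *Ube2e3* rose by 1.03. With 12 of the 13 above 6, the 23.1% that fell was again near background, and it was 0 genes after quantile normalization and without control replicate 1 or 2, and 1 after cyclic loess and without control replicate 3. The methods' t-test called no gene of the 4 lists after adjustment. The median of the E2 list was -0.22, and the medians of the PML, KAP1 and E2 lists were above 0 after quantile normalization, cyclic loess normalization or centring on genes above 6, where that of the sensing list reached at most -0.09.

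**Figure D5:**
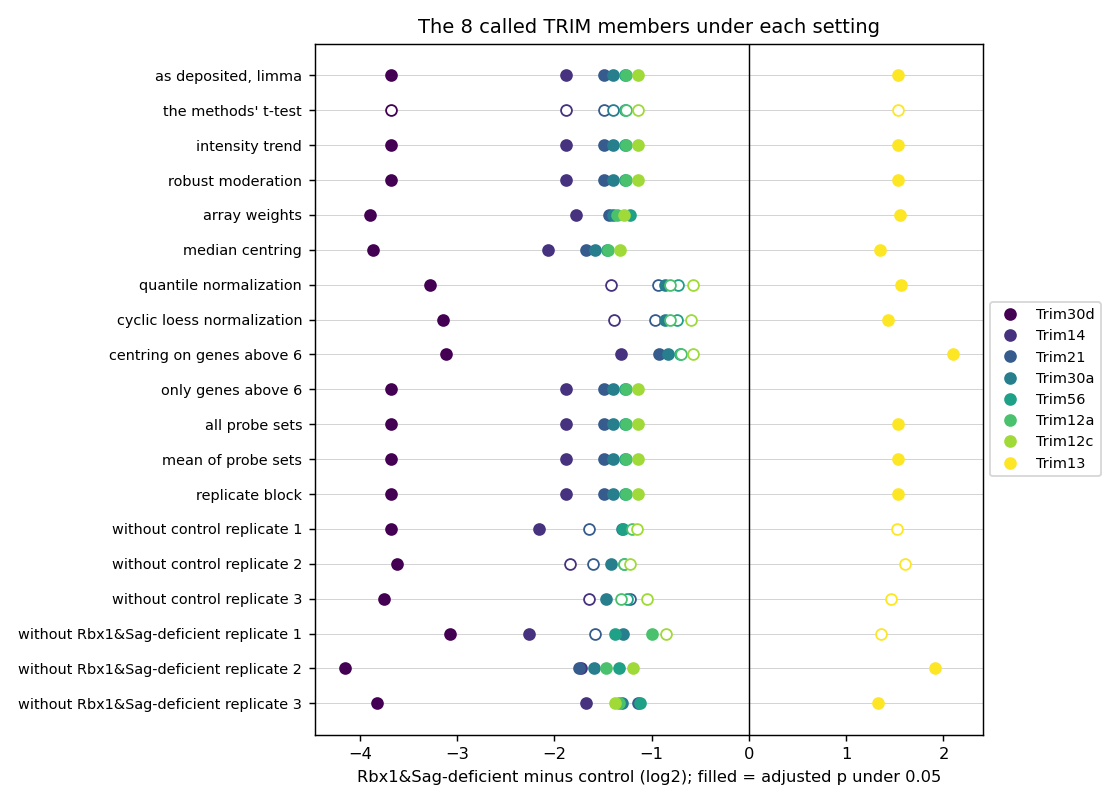
Difference of mean log2 signal, Rbx1&Sag-deficient minus control (horizontal axis), of the 8 called members (colours) under the deposited values and each alternative (rows), filled where the adjusted p was under 0.05. Trim30d stays between -4.15 and -3.07 and is filled in every row but that of the methods' t-test, while Trim12c has open points in 8 rows.

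How far each call depended on the scaling differed between members. *Trim30a* and *Trim30d* were called lower in 17 of 18 alternatives, all but the methods' t-test, and in each of the 6 fits without 1 array. After quantile or cyclic loess normalization they were the only members called lower. *Trim14* was then at -1.41 and -1.39 (adjusted p = 0.0578 and 0.0511 from limma), *Trim56* at -0.73 and -0.74 (0.0653 and 0.0571), *Trim21* at -0.94 and -0.96 (0.134 and 0.0918), *Trim12a* at -0.81 in both (0.115 and 0.103) and *Trim12c* at -0.58 and -0.59 (0.331 and 0.310). *Trim13* kept its call in both, at 1.56 and 1.43.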

How the data were processed

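The authors hybridised amplified RNA of the 6 pools to Clariom S arrays, used Affymetrix Expression Console 1.4, and the deposited values are log2 signals of 22206 probe sets. How background was corrected and arrays normalized, and the genome build, is not given in the sources used here. The platform's annotation gave 19572 probe sets 1 symbol, 0 several and 2634 none, and the probe set with the highest mean per symbol left 19505 genes. Values were used as deposited and compared with limma 3.58.1 (lmFit, then eBayes; R 4.3.3), two-sided, without covariates, with Benjamini-Hochberg adjustment over all genes. A gene was called at an adjusted p under 0.05, and differences are *Rbx1*&*Sag*-deficient minus control. The fit was tested on simulated data.

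The members and lists were chosen with earlier results of these data known. Named with every array's value were the called members and, above 6, the 6 members with the highest and the 6 with the lowest differences. Only 4 members above 6 had a positive difference. The 3 members on either side of the split, the 5 brightest and the interferon-linked members above 6 were named in the same way. Of each partner list up to 4 genes were named by p, by their differences (*Irf3* and *Rbx1* with every array). *Trim27*, *Trim39*, *Trim44*, *Trim35*, *Trim31*, *Trim29*, *Tab1*, *Ifnar2*, *Tab2*, *Ddx58* and members given without every array's value were named after their values were seen. Promoter windows are RefSeq's for GRCm38.p6, and motif matches were counted on both strands.

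The alternatives were the methods' t-test, limma with array weights, with an intensity trend or with robust moderation, normalization by quantiles, by cyclic loess or by median centring, centring on genes above 6, only genes above 6, all probe sets, the mean of probe sets, the replicate block, each array left out, a fold change above 2 with an unadjusted P under 0.05, and splits at 5 and 7.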

Additional observations from a re-analysis of the deposited data

How the results depend on the processing

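The number of arrays limits the precision. The 7 members called lower, all above 6, became 0 with the methods' t-test (14 members at an unadjusted P under 0.05), 2 after quantile or cyclic loess normalization, 4 after centring on genes above 6 and 2 to 9 without 1 array. The 1 called higher became 0 with the methods' t-test or with only genes above 6, 3 with array weights, 2 after cyclic loess normalization or under the rule of a 2-fold change at an unadjusted P under 0.05, 8 after centring on genes above 6 and 0 to 3 without 1 array. Over all genes, 1851 called lower became 23 with the methods' t-test, 733 with quantile and 876 with cyclic loess normalization, 916 with centring on genes above 6 and 544 to 2611 without 1 array. The 527 called higher became 7 with the methods' t-test, 279 after median centring, 5814 after centring on genes above 6, 156 with only genes above 6 and 76 to 1012 without 1 array. The share of lower among all calls, 77.8%, was 90.0% after median centring, 57.8% with quantile normalization, 58.1% with cyclic loess and 13.6% with centring on genes above 6, which moved the median of all genes from 0.04 to 0.61, while median centring moved it to -0.14.

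The median of members above 6, -0.55, was -0.73 after median centring, -0.062 with quantile normalization, -0.13 with cyclic loess, 0.017 with centring on genes above 6, -1.02 with the split at 7 and -0.77 to -0.47 without 1 array. That of members below 6, 0.04, was -0.14, -0.10 and -0.13 after median centring, quantile and cyclic loess normalization, 0.61 after centring on genes above 6 and 0.02 to 0.08 without 1 array. Beyond what centring and the choice of genes or arrays do by construction, the cause was not tested. Without control replicate 2, and without control replicate 3, *Trim30a* and *Trim30d* were the members left as lower. Without control replicate 1 these 2, *Trim14* and *Trim56* were left, and without deficient replicate 1 *Trim12a* as well, with *Trim13* lost in these 4 fits. Without deficient replicate 2, *Trim39* and *Trim44* joined the lower and *Trim31* and *Trim29* the higher members. Same-numbered samples did not deviate together (correlations of 0.009, 0.11 and 0.02), so the numbers are not taken to pair samples, and with the replicate block 7 members were called lower and 1 higher, and 2010 and 534 of all genes.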
